A study of Mus musculus with 8 samples.

Results

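AP-1 and other immediate early genes were read on 8 one-colour expression arrays of mouse liver. The set holds 10 genes, Fos, Fosb, Fosl2, Jun, Junb, Jund, Egr1, Nr4a1, Ier2 and Myc, taken by the gene name that the array files give. The files hold 11 probes for them, and the brightest probe of each gene by its mean over the 8 arrays was used. A detection filter asked that a probe be well above background on 4 or more of the 8 arrays. It passed 9 of the 10 genes, out of 18534 genes and other transcripts in all. Fos, well above background on 3 of 8 arrays, did not pass and is described without a test.

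All 8 livers came from male mice with liver fibrosis induced over 5 weeks with TAA (the usual abbreviation of thioacetamide, a liver toxin; the labels give the letters alone) or with CCl4 (carbon tetrachloride, another liver toxin). Over the next 2 weeks or 1 week the mice received miR-29a or a negative control nucleotide (NC), injected every 3 days. Every combination of agent, week and oligonucleotide is 1 liver sample on 1 array, so none has a replicate, and no liver without toxin is among the samples. The labels give neither strain nor age, and do not say whether a sample is 1 animal or a pool.

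Immediate early genes are transcribed within minutes of a growth factor, cytokine or stress signal, from promoters that need no new protein, and many of their messages are short-lived. FOS and JUN proteins pair through leucine zippers to form AP-1, which binds DNA sites shared by many genes of growth, inflammation and matrix. In liver these genes are known for their burst after partial hepatectomy and toxic injury, and JUN is known from mouse work to protect hepatocytes and to drive their division.

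The labels name miR-29a without its arm; the mature arm known for repressing collagen messages is shown here from RefSeq (GRCm38.p6, chr6:31062673-31062694, minus strand) because it is the agent of the main comparison, with its seed, bases 2 to 8, in capitals.
mmu-miR-29a-3p: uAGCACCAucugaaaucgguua

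RefSeq promoters (GRCm38.p6) were matched for 7 of the 10 genes. The bases just before the start of 5 of them are shown, because the results on AP-1 and on Nr4a1 turn on these genes. Capitals mark the CRE core TGACG, the TATA box TATAAA and the EGR site GCGNGGGCG, searched on both strands, and in Jun TGACATCA, a variant of the AP-1 and CRE sites whose search was added after the sequence was seen. Fos is the plus strand of chr12:85473740-85473889, Fosb the minus strand of chr7:19310046-19310125, Jun the minus strand of chr4:95052223-95052302, Junb the minus strand of chr8:84978749-84978868 and Nr4a1 the plus strand of chr15:101266746-101266845.
Fos: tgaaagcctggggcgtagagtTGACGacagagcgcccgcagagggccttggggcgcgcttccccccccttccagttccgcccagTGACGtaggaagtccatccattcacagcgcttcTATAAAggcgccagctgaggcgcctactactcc
Fosb: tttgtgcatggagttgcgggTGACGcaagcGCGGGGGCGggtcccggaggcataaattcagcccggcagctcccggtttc
Jun: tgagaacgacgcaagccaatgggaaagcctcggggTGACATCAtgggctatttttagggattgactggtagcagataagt
Junb: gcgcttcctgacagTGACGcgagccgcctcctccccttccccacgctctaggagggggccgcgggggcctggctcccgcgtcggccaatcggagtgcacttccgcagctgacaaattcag
Nr4a1: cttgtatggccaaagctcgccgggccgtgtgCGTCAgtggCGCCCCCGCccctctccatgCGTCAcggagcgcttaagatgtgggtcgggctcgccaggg

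The CRE core stood in Fos at 129 and 66 bases before the start, in Fosb at 60, in Junb at 106 and, on the other strand, in Nr4a1 at 233, 213, 69 and 40. Of the 32851 promoters in the table, 17.8% hold it before the start. The EGR site stood in Fosb at 50 and in Nr4a1 at 60 bases before the start (4.7% of all promoters), and in Fosl2 at 79. The TATA box stood in Fos at 33 (12.4% of all promoters), and TGACATCA in Jun at 45 (2.93%). The full CRE TGACGTCA (1.55%), the AP-1 site TGANTCA (6.75%) and the CArG box of serum response elements (1.47%) were not in these 7 windows before the start, and none of the letters searched was in that of Jund. The windows reach only a limited distance upstream, and the furthest match in them was that of Nr4a1 at 233 bases before the start. Bases further upstream were not searched, so a site missing from a window may still lie beyond it. A match of letters is a description of the sequence.

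Every level below is the log2 of an array's processed signal minus the 75th percentile of that array, so 0 is the signal of a fairly bright probe and 1 unit is a 2-fold difference. Levels compare 1 probe across arrays, not 1 gene with another. A difference given as mean ± SE is the mean of 4 matched pairs of arrays (n = 4) from an additive limma model of agent, week and oligonucleotide, and its adjusted p is Benjamini-Hochberg over all 18534 features. With 1 array per combination, the error behind a p-value is how far these samples depart from the fitted model. A difference that depends on another factor adds to that error. The samples were not stated to be separate animals, so p-values cannot be read as measuring the spread between animals. The arrays had 43.9% to 48.4% of spots well above background and a 75th percentile signal of 136 to 219. The 8 hepatocyte markers were well above background on all 8 arrays. The TAA 1-week NC array stood apart. The 5 measured neutrophil markers of 9 listed summed to 319 there, in multiples of the 75th percentile signal, against 4.04 to 8.75 on the other arrays, and the 9 Kupffer cell markers to 324, against 41.6 to 77.3. Many mean differences below are therefore also given without this array. Where that value is not given, a mean may still depend on this array. In whole liver, fewer cells of a type and less RNA per cell cannot be told apart.

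**Figure D1:**
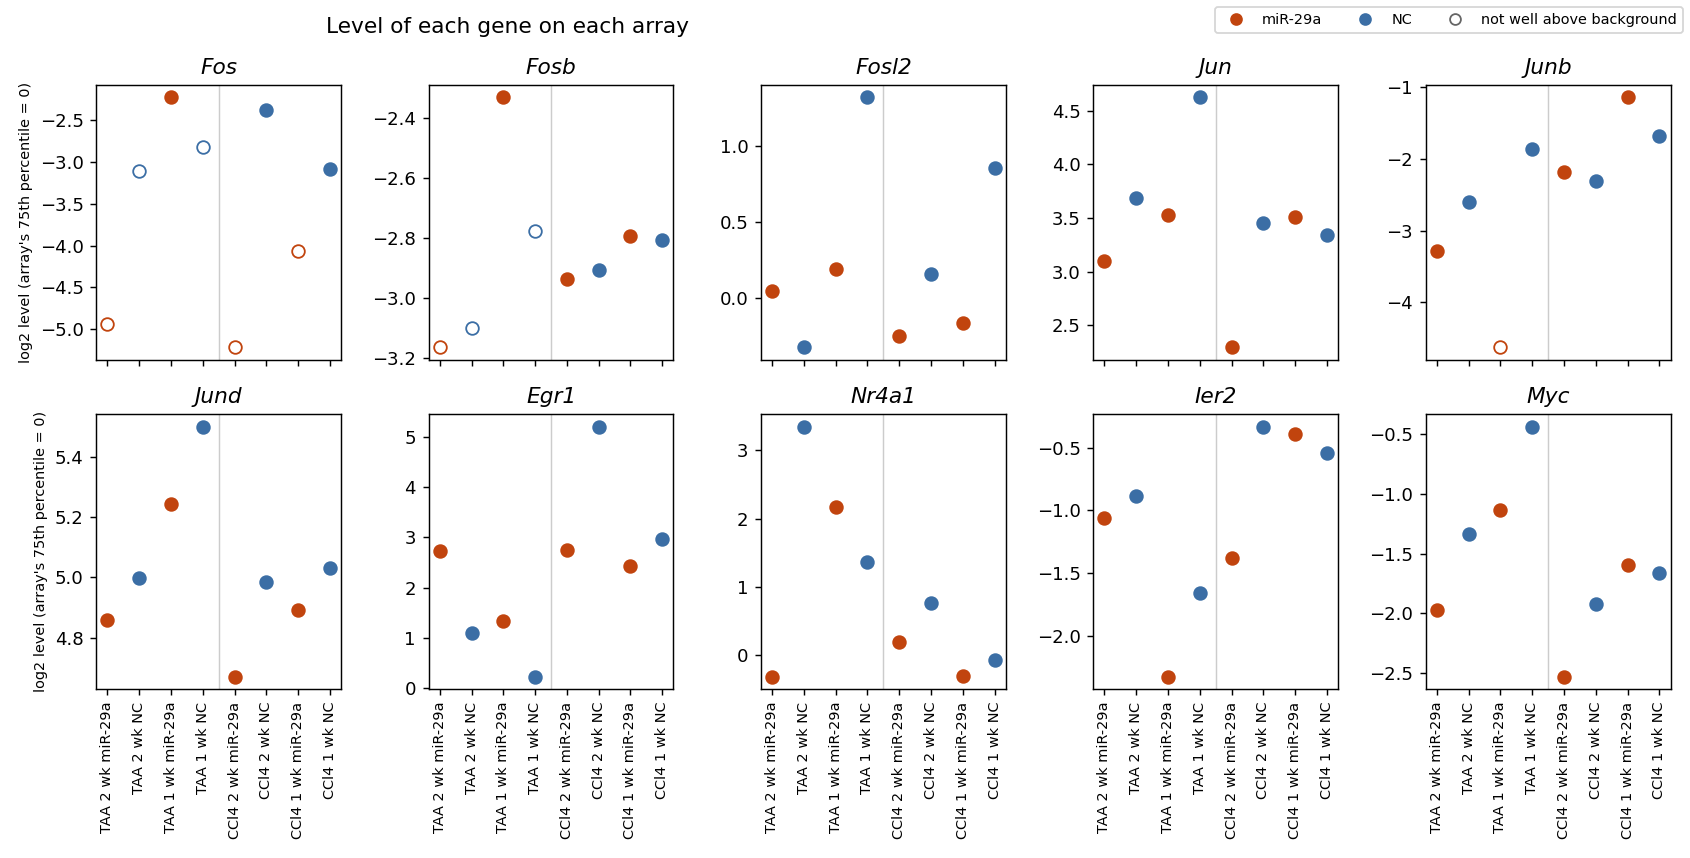
Level of each of the 10 genes on each of the 8 arrays (y axis, log2 relative to the array's 75th percentile; x axis, arrays with TAA left and CCl4 right of the grey line). Open circles are levels not well above background, and each panel has its own scale: Egr1 spans 0.23 to 5.20, Jund only 4.67 to 5.50.

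The FOS family supplies the partners that JUN proteins need for strong AP-1 binding. Fos, the founding member, was near the limit of detection. Its probe (chr12:86817900-86817959 on mm9, plus strand) is printed 10 times on each array. With miR-29a, Fos stood at −4.93 (TAA, 2 weeks), −2.23 (TAA, 1 week), −5.22 (CCl4, 2 weeks) and −4.06 (CCl4, 1 week), against −3.11, −2.82, −2.38 and −3.08 on the matched NC arrays in the same order. Thus 3 of the 4 miR-29a arrays lay below all NC arrays and the TAA 1-week one lay above them all, so the groups overlapped. Of the 10 spots, 1, 9, 0 and 0 were well above background with miR-29a, against 4, 4, 10 and 8 with NC. The mean difference was −1.26 with an SD of 1.45 between the 4 pairs, and a limma fit with no filter on dim probes gave an adjusted p of 0.977.

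Because a dim group gives only a bound, Fos differences within pairs are read against the dimmest signal that still counts as well above background, or the dim probe's own signal if that is higher. On this reading Fos was at least 2.22-fold lower with miR-29a than with NC at 2 weeks of CCl4 and at least 1.29-fold lower at 1 week of CCl4. It was at least 1.51-fold higher with miR-29a at 1 week of TAA. At 2 weeks of TAA neither array held Fos well above background by most of its spots, and no fold is given. Spots of the Fos probe on 1 array varied by 16.0% to 37.2% (coefficient of variation).

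Fosb, a FOS protein with a known role in lasting responses of brain cells, was dim and nearly flat (chr7:19888168-19888227 on mm9, minus strand). With miR-29a it stood at −3.17 (TAA, 2 weeks), −2.33 (TAA, 1 week), −2.94 (CCl4, 2 weeks) and −2.79 (CCl4, 1 week), against −3.10, −2.78, −2.91 and −2.81 with NC. The 8 arrays spanned 0.83 log2 units, and 5 of them were well above background. The miR-29a difference was 0.09 ± 0.16, with 2 pairs higher and 2 lower, and 0.06 ± 0.18 without the TAA 1-week NC array.

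Fosl2 (the protein FRA-2, known in mice to promote fibrosis when overproduced) was well above background on all 8 arrays with its brighter probe (chr5:32460076-32460135 on mm9, plus strand). Its other probe (chr5:32455088-32455147) was well above background on 0 of 8 arrays and was not used. With miR-29a, Fosl2 stood at 0.05 (TAA, 2 weeks), 0.19 (TAA, 1 week), −0.25 (CCl4, 2 weeks) and −0.17 (CCl4, 1 week), against −0.33, 1.32, 0.15 and 0.86 with NC. The miR-29a arrays thus kept within a narrow band and the NC arrays spread across it, from the lowest level of all to the 2 highest. The difference was −0.55 ± 0.28 (limma, adjusted p = 1.00), and −0.34 ± 0.27 without the TAA 1-week NC array.

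In the JUN family, Jun and Jund were well above background on all arrays. Jun (chr4:94716928-94716987 on mm9, minus strand), the main activating partner of FOS, stood with miR-29a at 3.10 (TAA, 2 weeks), 3.53 (TAA, 1 week), 2.30 (CCl4, 2 weeks) and 3.51 (CCl4, 1 week). The matched NC arrays gave 3.68, 4.62, 3.45 and 3.34. Jun was lower with miR-29a in 3 of 4 pairs, by 0.59 to 1.16 log2 units, and slightly higher (0.17) at 1 week of CCl4. The highest level was that of the TAA 1-week NC array and the lowest that of the CCl4 2-week miR-29a array. The mean difference was −0.67 ± 0.23 (limma, unadjusted p = 0.027, adjusted p = 1.00) and −0.55 ± 0.26 (unadjusted p = 0.0854) without the TAA 1-week NC array.

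Junb, a JUN protein that often restrains Jun, was dimmer and differed most on 1 array (chr8:87501881-87501940 on mm9, minus strand). With miR-29a it stood at −3.28 (TAA, 2 weeks), −4.62 (TAA, 1 week), −2.18 (CCl4, 2 weeks) and −1.15 (CCl4, 1 week), against −2.60, −1.86, −2.31 and −1.69 with NC. On TAA both miR-29a arrays were below their NC partners, and on CCl4 both were above. The TAA 1-week miR-29a array was the one not well above background, and it was at least 3.72-fold lower than its NC partner. The mean over the 4 pairs was −0.69 ± 0.56, with a wider SD of 1.47 between the pairs, and −0.32 ± 0.59 without the TAA 1-week NC array.

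Jund, a JUN protein made more steadily than the others, varied least among the genes well above background on all arrays (chr8:73224436-73224495 on mm9, plus strand). With miR-29a it stood at 4.86 (TAA, 2 weeks), 5.24 (TAA, 1 week), 4.67 (CCl4, 2 weeks) and 4.89 (CCl4, 1 week), against 5.00, 5.50, 4.98 and 5.03 with NC. It was the only one of the 9 genes lower with miR-29a in all 4 pairs, by 0.14 to 0.31 log2 units, a pattern that 5.69% of all features show. The mean was −0.21 ± 0.12 (limma, unadjusted p = 0.134, adjusted p = 1.00).

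Egr1, a zinc finger factor of wound and growth responses, had the widest range of the genes that passed the filter. With miR-29a it stood at 2.73 (TAA, 2 weeks), 1.34 (TAA, 1 week), 2.75 (CCl4, 2 weeks) and 2.43 (CCl4, 1 week), against 1.10, 0.23, 5.20 and 2.96 with NC. The difference thus ran opposite ways by agent. On TAA the miR-29a arrays were 3.10-fold (2 weeks) and 2.16-fold (1 week) higher than NC, and on CCl4 they were 5.45-fold and 1.45-fold lower. The 4 pairs cancelled to −0.06 ± 0.64, and to −0.33 ± 0.75 without the TAA 1-week NC array. The test of the difference between agents gave 2.86 ± 0.65 log2 units (limma, unadjusted p = 0.0055), which did not pass after adjustment (adjusted p = 1.00). No feature did in the tests of the oligonucleotide by agent or by week (0% each).

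Nr4a1, an orphan nuclear receptor induced by many stimuli, held the largest difference of the set within a pair of miR-29a and NC arrays (chr15:101105071-101105130 on mm9, plus strand). With miR-29a it stood at −0.31 (TAA, 2 weeks), 2.17 (TAA, 1 week), 0.20 (CCl4, 2 weeks) and −0.30 (CCl4, 1 week), against 3.34, 1.37, 0.77 and −0.07 with NC. At 2 weeks of TAA it was 12.6-fold lower with miR-29a than with NC, and at 1 week of TAA 1.74-fold higher. The mean of −0.92 ± 0.69 (limma, adjusted p = 1.00) therefore rested on the 2-week TAA pair, and over the alternatives tried it reached −0.003. Without the TAA 1-week NC array it was −1.23 ± 0.80.

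Ier2, a small nuclear protein named for its immediate early response, stood with miR-29a at −1.06 (TAA, 2 weeks), −2.33 (TAA, 1 week), −1.38 (CCl4, 2 weeks) and −0.39 (CCl4, 1 week). The NC arrays gave −0.89, −1.66, −0.33 and −0.54 (chr8:87186214-87186273 on mm9, minus strand). It was lower with miR-29a in 3 of 4 pairs, with a mean of −0.43 ± 0.35 (adjusted p = 1.00). Levels on the 2 TAA 1-week arrays were below those on all other arrays.

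Myc, the factor of ribosome making and cell growth, has 2 spots per array (chr15:61821417-61821476 on mm9, plus strand). With miR-29a it stood at −1.97 (TAA, 2 weeks), −1.14 (TAA, 1 week), −2.53 (CCl4, 2 weeks) and −1.60 (CCl4, 1 week), against −1.34, −0.44, −1.92 and −1.66 with NC. In 3 of 4 pairs it was lower with miR-29a, by 0.61 to 0.70 log2 units, and at 1 week of CCl4 it differed by 0.07. The 2 spots of the TAA 2-week miR-29a array lay far apart, at signals of 33.9 and 76.8. Their SE was 0.59 log2 units, close in size to that pair's difference of −0.64. That array also enters the comparisons of Myc between agents and between weeks. The mean miR-29a difference was −0.47 ± 0.17 (limma, unadjusted p = 0.0302, adjusted p = 1.00) and −0.38 ± 0.18 (unadjusted p = 0.0841) without the TAA 1-week NC array.

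**Figure D2:**
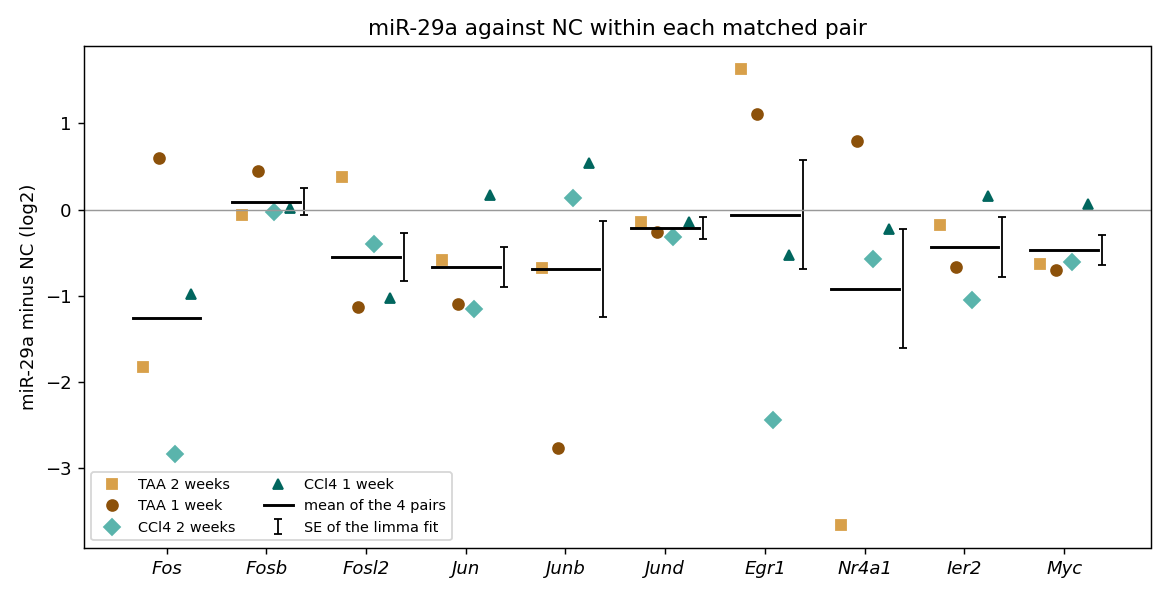
Difference of miR-29a minus NC (log2) within each matched pair for the 10 genes. Symbols are the 4 pairs, horizontal bars their mean and whiskers the SE of the limma fit, which Fos lacks. Egr1 pairs lie on both sides of 0 by agent, and Nr4a1 at 2 weeks of TAA lies at −3.66.

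Taken over the 9 genes that passed the filter, 8 had a lower mean with miR-29a than with NC, and Fosb was the exception. The median difference was −0.47, against 0.03 over all features, of which 42.9% were lower. Without the TAA 1-week NC array 8 of 9 were again lower, with a median of −0.34 against −0.01 over all features. The direction was not that of every pair: the median of the 9 genes was −0.18 at 2 weeks of TAA, −0.67 at 1 week of TAA, −0.57 at 2 weeks of CCl4 and 0.01 at 1 week of CCl4. At 1 week of CCl4, 5 of the 9 were higher and 4 lower.

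Differences over 2-fold within a pair were counted for the 9 genes beside all features. The TAA 2-week pair had 2 of the 9 (Egr1 and Nr4a1; 2.68% of features), and the TAA 1-week pair 4 (Fosl2, Jun, Junb and Egr1; 9.83%). The CCl4 2-week pair had 3 (Jun, Egr1 and Ier2; 1.86%) and the CCl4 1-week pair 1 (Fosl2; 2.83%). A single pair has no replicate, and no test was made on it.

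No feature passed the adjusted threshold for miR-29a against NC in limma (0% of 18534), while 524 had an unadjusted p under 0.05. Lower with miR-29a at that unadjusted level were 2 of the 9 genes, Jun and Myc, and 1.17% of all features.

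Other measures moved with the oligonucleotide too. Of 13 measured clock genes of 16 listed, 11 had a higher mean with miR-29a, led by Ciart (2.66 ± 0.62), Per3 (2.25 ± 0.57) and Usp2 (2.06 ± 0.36). Ciart was well above background on 6 of the 8 arrays and Per3 on 5, so the sizes of their differences rest partly on dim signals. Without the TAA 1-week NC array Ciart, Per3 and Usp2 stood at 3.13 ± 0.62, 2.80 ± 0.45 and 2.45 ± 0.195. An unadjusted p under 0.05 in limma was found for 10 of the 13 (11 without the TAA 1-week NC array), and 0 passed the adjusted threshold. The clock genes summed to 215 to 392 with miR-29a, against 101 to 247 with NC. All 13 measured acute phase genes of 14 listed were lower on average, with a median of −0.86, and −0.17 without the TAA 1-week NC array. The summed Kupffer cell markers ranged from 41.6 to 77.3 with miR-29a, against 61.6 to 324 with NC, and the neutrophil markers from 4.04 to 7.38, against 6.18 to 319. All 9 Kupffer cell markers (median −0.68) and all 5 neutrophil markers (median −1.73) were lower on average. On the other 7 arrays, the TAA 1-week NC array left out, 8 of 9 Kupffer cell markers (median −0.26) and 5 of 5 neutrophil markers (median −0.22) were lower. The Kupffer cell median was −2.24 in the TAA 1-week pair and 0.22 in the CCl4 1-week pair. Of 8 measured infiltrating macrophage markers of 9 listed, 7 were lower (median −0.39, and −0.28 without that array). The part of these in the values of the immediate early genes was not tested.

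Between agents, the set split. Myc was higher on TAA than on CCl4 in all 4 pairs, by 0.46 to 1.23 log2 units, with means of −1.22 ± 0.63 on TAA and −1.93 ± 0.43 on CCl4 (SD, n = 4 arrays each). The difference was 0.71 ± 0.17 (limma, unadjusted p = 0.00502, adjusted p = 0.130). Jun was higher on TAA in all 4 pairs (0.58 ± 0.23, adjusted p = 0.167), although at 1 week with miR-29a the gap was 0.02. Jund was also higher in all 4 (0.26 ± 0.12), but its direction turned to −0.14 when arrays were scaled to their median.

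Egr1 went the other way. It averaged 1.35 ± 1.04 on TAA and 3.34 ± 1.26 on CCl4 (SD, n = 4 each), a difference of −1.99 ± 0.64 (limma, unadjusted p = 0.0188, adjusted p = 0.133), lower on TAA in all 4 pairs. At 2 weeks the gap was 1.02-fold with miR-29a and 17.2-fold with NC. Junb was lower on TAA in all 4 pairs as well (−1.26 ± 0.56, adjusted p = 0.190), by at least 6.10-fold at 1 week with miR-29a and by 0.18 to 1.10 log2 units in the other pairs. Ier2 was lower in 3 of 4 (−0.82 ± 0.35, adjusted p = 0.177). Nr4a1 was higher on TAA in 3 of 4 pairs (1.49 ± 0.69, limma adjusted p = 0.200), by 1.44 to 2.57 log2 units in those. Its mean difference was 1.80 ± 0.80 without the TAA 1-week NC array. Fosl2 (0.16 ± 0.28) and Fosb (0.02 ± 0.16) differed by less than their errors, and both turned negative under median scaling.

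Higher on TAA in all 4 pairs were thus 3 of the 9 genes, Jun, Jund and Myc, beside 10.9% of all features. Lower in all 4 were 2 of 9, Junb and Egr1, beside 27.1%. At an unadjusted p under 0.05, Jun and Myc were higher (9.02% of features) and Egr1 lower (19.7%). Without the TAA 1-week NC array Myc kept this level (0.62 ± 0.18, unadjusted p = 0.0169), while Jun (0.46 ± 0.26, unadjusted p = 0.131) and Egr1 (−1.71 ± 0.75, unadjusted p = 0.0687) did not. Junb then had an unadjusted p of 0.0375 (−1.64 ± 0.59), and Fosl2 turned to −0.05 ± 0.27. Fosb was then at 0.05 ± 0.18. The median of the 9 genes was 0.16, against −0.13 over all features, and 0.05 against −0.10 without that array. No feature passed the adjusted limma threshold (0%), with 5322 at an unadjusted p under 0.05. With a term for agent by week added, 5012 features passed in limma, and so did Myc (adjusted p = 0.0309) and Ier2 (adjusted p = 0.0435). The term left the mean differences as they were (0.71 for Myc and −0.82 for Ier2) and changed their error, with 3 residual degrees of freedom. Scaling to array medians shifted the median of all features by −0.39 for this comparison. Over the alternatives the mean differences of Jun and Myc stayed positive, at 0.19 and 0.32 at the lowest. The medians of the 1-week miR-29a arrays were −3.47 (TAA) and −4.07 (CCl4). That gap is wider than the differences of Myc (0.46) and Jun (0.02) between these arrays. Under median scaling Jun and Myc would therefore not be higher on TAA in all 4 pairs. The TAA arrays lay in 1 row of the slide and the CCl4 arrays in the other, so slide row and agent cannot be told apart.

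Markers of other cells moved between the agents as well. Of the 8 infiltrating macrophage markers 6 were higher on TAA (median 0.91), 5 of the 8 had an unadjusted p under 0.05 in limma and Chil3 led (2.99 ± 0.50). They summed to 19.2 to 35.9 on TAA, against 10.7 to 14.2 on CCl4, and the median was 0.73 without the TAA 1-week NC array. The 9 Kupffer cell markers were all higher on average (median 0.69), with sums of 58.8 to 324 on TAA, against 41.6 to 77.3 on CCl4. Without that array, which holds the 324, the TAA sums reached 73.7, within the CCl4 range, and 7 of 9 were higher (median 0.24). Of the neutrophil markers 4 of 5 were higher (median 0.93), and 0 of 5 without that array (median −0.38). Of the 5 measured T and NK cell markers of 8 listed, 3 were higher, with Cd3g at 1.01 ± 0.15. Of the 13 clock genes 8 were higher and 5 lower, and 8 had an unadjusted p under 0.05 in limma (4 without that array). Per3 led (2.04 ± 0.57, higher in 4 of 4 pairs, and 1.49 ± 0.45 without that array). None of the genes in these lists passed the adjusted threshold, and their part in the differences above was not tested.

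**Figure D3:**
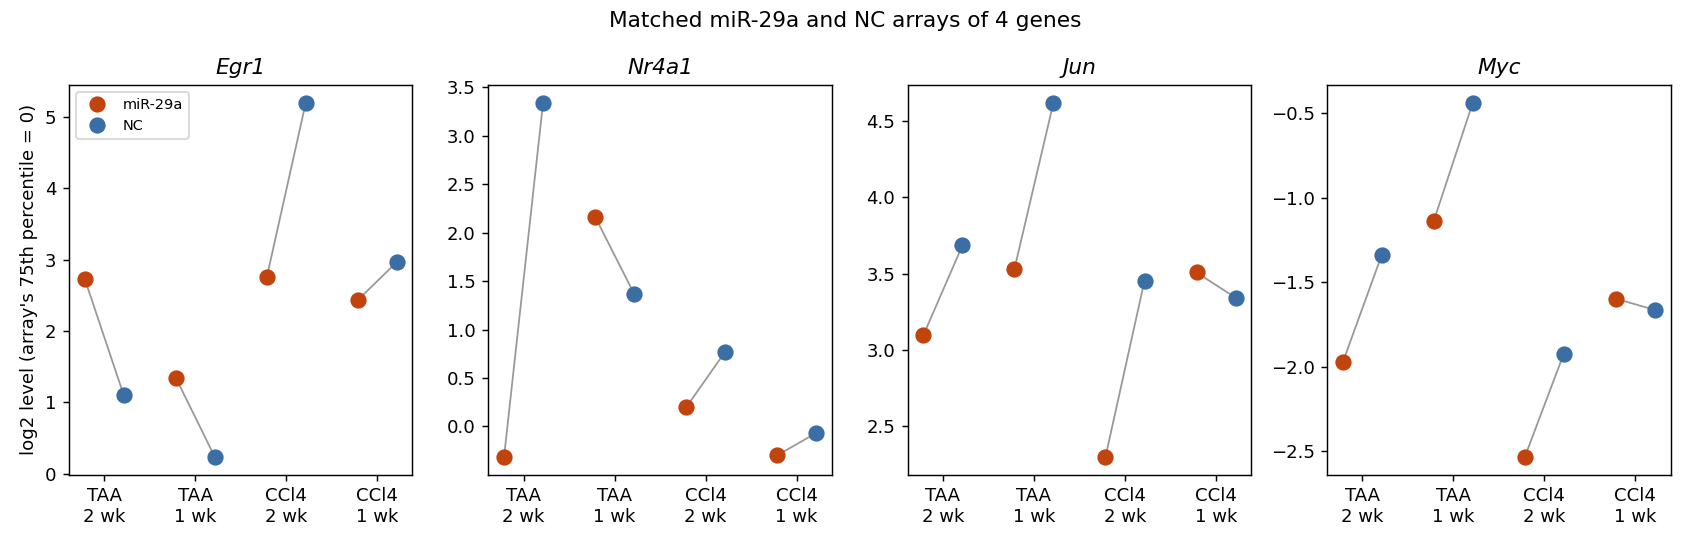
Egr1, Nr4a1, Jun and Myc on matched arrays (y axis, log2 level; lines join the miR-29a and the NC array of a pair). Egr1 is higher with miR-29a on TAA and lower on CCl4, while Myc is higher on TAA than on CCl4 in each matched comparison.

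Between weeks, Myc was lower at 2 weeks than at 1 week in all 4 pairs. Its means were −1.94 ± 0.49 at 2 weeks and −1.21 ± 0.57 at 1 week (SD, n = 4 each), a difference of −0.73 ± 0.17 (limma, unadjusted p = 0.00422, adjusted p = 0.804). Fosl2 (−0.65 ± 0.28), Fosb (−0.35 ± 0.16) and Jund (−0.29 ± 0.12) were also lower in all 4, so that 4 of 9 genes showed a pattern that 6.08% of all features show. Some gaps were near 0, such as −0.08 for Fosl2 (CCl4, miR-29a) and −0.05 for Jund (CCl4, NC). Fosb was not well above background on either TAA NC array or on the TAA 2-week miR-29a array. Without the TAA 1-week NC array Fosl2 was at −0.44 ± 0.27, Fosb at −0.38 ± 0.18 and Jund at −0.24 ± 0.13. Jun was lower in 3 of 4 (−0.62 ± 0.23, unadjusted p = 0.0362, adjusted p = 0.872). At an unadjusted p under 0.05, Jun and Myc were lower, beside 2.47% of features. With the TAA 1-week NC array left out Myc kept this level (−0.64 ± 0.18, unadjusted p = 0.0145) and Jun did not (−0.50 ± 0.26, unadjusted p = 0.110).

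Egr1 was the exception, higher at 2 weeks in all 4 pairs (1.20 ± 0.64, adjusted p = 0.872), a pattern shown by 6.04% of features. Its mean difference was 0.93 ± 0.75 without the TAA 1-week NC array. On CCl4 its gap was 1.25-fold with miR-29a and 4.71-fold with NC. Junb (−0.26 ± 0.56), Nr4a1 (0.21 ± 0.69) and Ier2 (0.31 ± 0.35) differed by less than their errors. Leaving out the TAA 1-week NC array turned Junb to 0.11 ± 0.59 and Nr4a1 to −0.11 ± 0.80, and put Ier2 at 0.20 ± 0.41. No feature passed the adjusted limma threshold (0%), with 961 at an unadjusted p under 0.05. Over the 9 genes the median was −0.29, against 0.03 for all features.

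Other gene groups moved with the week too. Of 9 measured stellate cell genes of 10 listed, genes of the cells that make scar matrix, 5 were lower and 4 higher at 2 weeks. Acta2 (−1.42 ± 0.24) and Col3a1 (−0.96 ± 0.18) differed most, and the 9 summed to 23.3 to 29.2 at 2 weeks, against 36.9 to 57.9 at 1 week. Of the 13 clock genes 9 were lower and 4 higher, and 10 had an unadjusted p under 0.05 in limma (9 without the TAA 1-week NC array). Usp2 stood at −2.16 ± 0.36 and Arntl at 2.36 ± 0.49, each in 4 of 4 pairs. Without that array Usp2 was at −1.76 ± 0.195 and Arntl at 1.84 ± 0.35. All 13 acute phase genes were lower (median −0.61), and 11 of 13 without that array (median −0.21). All 9 Kupffer cell markers were lower (median −0.64), and 9 of 9 without that array (median −0.19). All 5 neutrophil markers were lower (median −1.35), and 4 of 5 without that array (median −0.09). Of the 8 infiltrating macrophage markers 6 were lower (median −0.54, and −0.42 without that array). None of these genes passed the adjusted threshold. Their part in the values of the 9 genes was not tested.

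The difference between agents depended on the week for 9.81% of all features in limma, and for 0 of the 9 genes. No feature passed this test when any one CCl4 array or either TAA 2-week array was left out. The largest of the set was Ier2 (1.41 ± 0.43, unadjusted p = 0.0194, adjusted p = 0.0969), which at 1 week was lower on TAA than on CCl4 by 1.94 log2 units with miR-29a and 1.12 with NC. For the oligonucleotide by week the smallest p was that of Fosl2 (1.07 ± 0.40, unadjusted p = 0.0413, adjusted p = 1.00).

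**Figure D4:**
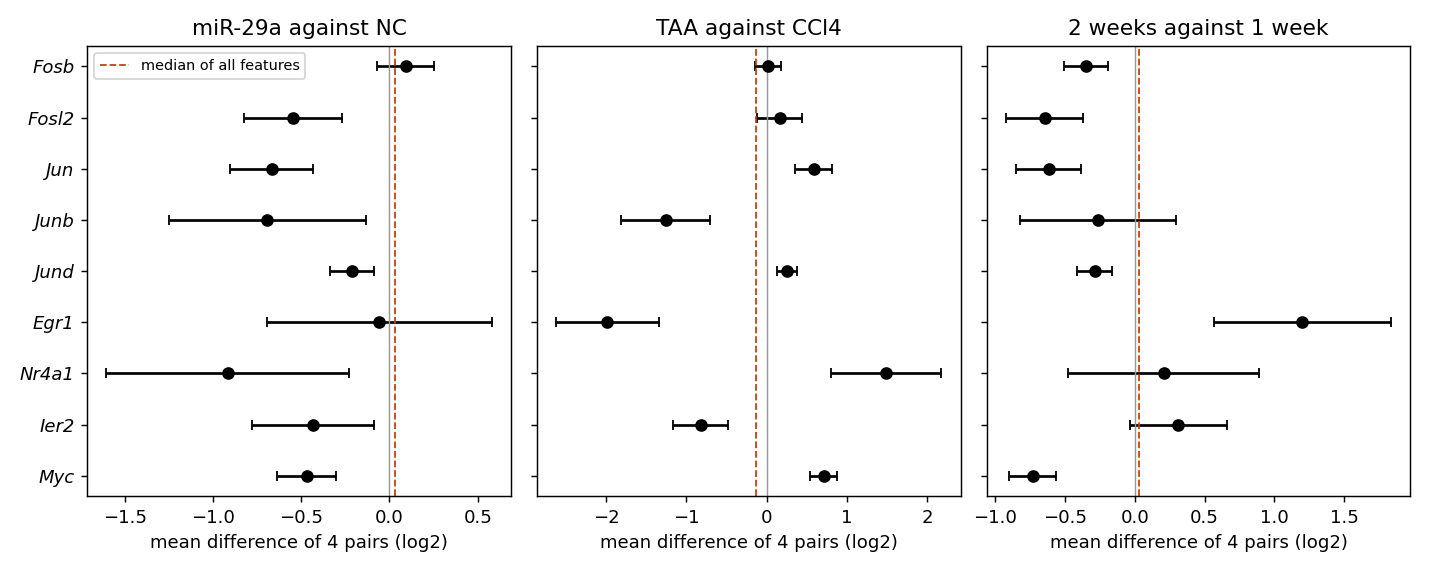
Mean difference (log2, x axis) of the 9 genes that passed the filter in the 3 comparisons, with the SE of the limma fit, and the median of all features as a dashed line. No gene passed the adjusted threshold; for TAA against CCl4 the signs of Fosb, Fosl2 and Jund turn when arrays are scaled to their median.

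Across the 8 arrays some genes kept step. Myc correlated with Jund (Pearson r = 0.949, Spearman rho = 0.881) and with Jun (0.948 and 0.952), and Jun with Jund (0.901 and 0.786). Without the TAA 1-week NC array, r was 0.886, 0.886 and 0.774 over 7 arrays. Fos correlated with Jund at r = 0.734. Egr1 ran against Myc (r = −0.716, and −0.536 over 7 arrays). All points share the scaling of their array, the arrays differ by agent and week, and no p is given.

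The genes most like the mean profile of the 9, among 12102 candidates well above background on all 8 arrays, were Synj1 (Pearson r = 0.960), Tfpi (0.922), Peg13 (0.922), 3930402G23Rik (0.917) and Cd55 (0.916). For Fos, itself well above background on only 3 of the 8 arrays, they were Tmem28 (0.916), Ubtd2 (0.904) and She (0.868). All these genes were picked as the highest r among the 12102 candidates, and no p is given. The mean profile itself was −0.34 and −0.21 on the TAA miR-29a arrays (2 weeks, 1 week), against 0.10 and 0.26 with NC, and −0.37 and 0.05 on the CCl4 miR-29a arrays, against 0.35 and 0.16 with NC.

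Related genes were read from lists, and 0 of their genes passed the adjusted threshold in any of the 3 comparisons. Among 12 measured AP-1 partners and relatives of 13 listed, 7 were lower and 5 higher with miR-29a (median −0.16, and 0.004 without the TAA 1-week NC array). Batf (−0.69 ± 0.49, and −0.10 without that array) and Maff (0.65 ± 0.30, and 0.38) differed most. On TAA against CCl4 the largest were Batf3 (1.18 ± 0.48), Jdp2 (1.07 ± 0.30) and Atf3 (0.90 ± 0.24), all higher in 4 of 4 pairs, with Batf3 at 0.66 without that array; ATF3 is a stress factor and JDP2 a repressor of AP-1. At 2 weeks against 1 week 11 of 12 were lower, with a median of −0.51, and Jdp2 (−1.01 ± 0.30) led. Without the TAA 1-week NC array 10 of 12 were lower and the median was −0.13.

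Other immediate early transcription factors gave 8 lower and 4 higher of 12 with miR-29a (median −0.34, and −0.15 without the TAA 1-week NC array). Ier5 (−1.06 ± 0.44) and Cebpd (−0.89 ± 0.47) were lower in 4 of 4 pairs, most in the TAA 1-week pair (−2.86 and −2.85). Without its NC array Ier5 was at −0.69 ± 0.41 and Cebpd at −0.33 ± 0.20. Bhlhe40, which is also a clock factor, was higher in 4 of 4 (0.67 ± 0.26). At 2 weeks 11 of 12 were lower (median −0.44), led by Bhlhe40 (−0.92 ± 0.26) and Klf10 (−0.88 ± 0.32). Without the TAA 1-week NC array it was 9 of 12, with a median of −0.19. On TAA 6 were higher and 6 lower than on CCl4, and 3 and 9 without that array.

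Feedback inhibitors, which shut such signals off, were lower with miR-29a in 9 of 13 measured of 15 listed (median −0.16), with Tnfaip3, the brake on NF-kappaB, at −1.24 ± 0.78 and lower in 4 of 4 pairs. The TAA 1-week pair, at −4.63, carried that mean: the other pairs lay between −0.27 and −0.01, and without the TAA 1-week NC array it was −0.34 ± 0.40. On TAA against CCl4 Spry4 stood at −1.17 ± 0.47 (−0.66 without that array), Dusp2 at 0.67 ± 0.22 and Zfp36l1 at −0.65 ± 0.19. Of EGR and NR4A relatives, 2 of 7 listed were measured: Nab1 and Nab2, co-repressors of EGR proteins. Nab1 was lower on TAA in 4 of 4 pairs (−0.57 ± 0.13) and Nab2 in 3 of 4 (−0.51 ± 0.24).

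The 17 kinases and factors upstream of these genes had a median near 0 with miR-29a (0.02, 10 higher and 7 lower, and −0.004, 8 higher and 9 lower, without the TAA 1-week NC array). Mapk8, which encodes the kinase JNK1, was at 1.36 ± 0.57 for 2 weeks against 1 week, higher in 4 of 4 pairs, and at 0.88 ± 0.53 without that array. The 16 reported MYC targets were 8 higher and 8 lower with miR-29a (median 0.02), and on TAA against CCl4 12 of 16 were lower (median −0.15, against −0.13 over all features), led by Npm1 (−0.80 ± 0.23). Among 6 measured MYC partners of 10 listed, 3 were higher and 3 lower with miR-29a, and Mycl was lower on TAA in 4 of 4 pairs (−0.74 ± 0.24, and −0.48 ± 0.13 without that array).

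All 7 measured of 13 reported AP-1 targets were lower on average with miR-29a, with a median of −0.50, and again 7 of 7 without the TAA 1-week NC array (median −0.33). The fall was not that of every pair. Their median was 0.21 at 2 weeks of TAA, −1.40 at 1 week of TAA, −0.02 at 2 weeks of CCl4 and −0.73 at 1 week of CCl4. Timp1 and Spp1 were higher with miR-29a in both 2-week pairs. Ccl2, a monocyte attractant, was lower in 4 of 4 pairs (−1.43 ± 0.52, limma unadjusted p = 0.0298), and stood at −0.89 ± 0.36 (unadjusted p = 0.0535) without that array. On TAA against CCl4 6 of 7 were higher, but 2 of 7 without that array, and Spp1 (1.16 ± 0.37) led. The list holds genes that macrophages make too, and the Kupffer cell and neutrophil markers above were also lower on average with miR-29a. The Kupffer cell medians were 0.09 and −2.24 on TAA (2 weeks, 1 week) and −0.70 and 0.22 on CCl4. The part of these cells in the values of the AP-1 targets was not tested.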

How the data were processed

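The 8 arrays, 1 for each combination of agent, week and oligonucleotide, took their groups from the sample titles. The deposited spot intensity values were made by the authors with Agilent Feature Extraction (version 10.10.1.1, mm9 annotation), per the file headers. The deposited flags (well above background, outlier, saturated) are other values of that program, 0 or 1 per spot, per the file headers. A value table of log2 intensities was deposited too, and how it was made is not given in the sources used here. Against the scanner values, each column differed from its own array's log2 signal by 1 constant (within 0.01 for 100% of 55657 probes). Its column medians were −3.57 and −3.73 (TAA, 2 weeks, miR-29a and NC), −3.47 and −3.46 (TAA, 1 week), −3.81 and −3.87 (CCl4, 2 weeks) and −4.07 and −4.04 (CCl4, 1 week), so its scale, direction and lack of centring per gene are known from the values.

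Control spots and the 126 to 196 outlier spots per array were left out; 0 spots were saturated. Log2 processed signals were averaged over a probe's spots and set against the 75th percentile of their array, probes were kept when 4 or more of the 8 arrays held them well above background, and the brightest probe per gene gave 18534 features. Names came from a RefSeq table of GRCm38.p6, used for names alone (27641 probes by accession, 3400 by symbol, 321 by older symbol), and 24295 kept the files' name. Coordinates of probes are those of the files, on mm9.

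The model, fitted by limma (version 3.58.1, R 4.3.3) to all 8 arrays, had additive terms for the agent, the week and the oligonucleotide (4 residual degrees of freedom), with Benjamini-Hochberg adjustment at 0.05. Interactions added 1 term at a time (3 residual degrees of freedom). Simulated arrays with known changes were used to test the fit. The number of arrays limits the precision. All 8 arrays lay on 1 slide with 1 scan time, with TAA and CCl4 in different rows and each week and oligonucleotide combination in 1 column, so a block for slide or scan could not be fitted.

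The 10 genes, the related gene lists, the marker lists and the tests were chosen with earlier results of these data known. All 10 genes are named. Of each list, the text names genes among the 3 with the largest absolute mean difference per comparison. Genes most like the set are those with the highest Pearson r over the 8 arrays. Alternatives were normexp background correction (offset 50), quantile normalization, array medians, the authors' matrix, other filters, the mean of a gene's probes, leaving out arrays or pairs, and an agent by week term.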

Additional observations from a re-analysis of the deposited data

Results flagged for a closer look

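Each gene's level was compared within the 4 arrays of each oligonucleotide, agent and week, and 4 of 60 such groups held an array far from the other 3, by Dixon's criterion; chance flags about 1 in 20. Fosb stood at −2.33 on the TAA 1-week miR-29a array, with the other 1-week arrays between −2.81 and −2.78. Jun stood at 2.30 on the CCl4 2-week miR-29a array, with the other CCl4 arrays between 3.34 and 3.51. Jun stood at 4.62 on the TAA 1-week NC array, with the other 1-week arrays between 3.34 and 3.53, and Jund at 5.50 on the same array, with the other NC arrays between 4.98 and 5.03.

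The miR-29a minus NC difference took opposite signs in every pair of 2 groups for 3 genes. The share of all features with such a pattern was not counted, so it does not set these genes apart. For Egr1 it averaged 1.37 on TAA and −1.49 on CCl4 (limma interaction, unadjusted p = 0.0055, adjusted p = 1.00). For Junb it averaged −1.72 on TAA and 0.34 on CCl4 (unadjusted p = 0.053, adjusted p = 1.00). For Fosb it averaged −0.0475 at 2 weeks and 0.23 at 1 week (unadjusted p = 0.445, adjusted p = 1.00). The Fosb differences were −0.07 (TAA) and −0.03 (CCl4) at 2 weeks, and 0.44 (TAA) and 0.01 (CCl4) at 1 week. Neither TAA 2-week array held Fosb well above background.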

How the results depend on the processing

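The additive model sets matched arrays against each other, and the agent by week term holds the 4 matched combinations of miR-29a and NC arrays as blocks. With these blocks miR-29a against NC had 0 features past the threshold, and the smallest adjusted p among the 9 genes was 0.785. A block for slide or scan was not run, since all arrays share both. Pairs and arrays were left out one at a time. For miR-29a against NC, 0 features passed the adjusted threshold in limma under all 20 alternatives, and the median of the 9 genes kept its sign (−0.63 to −0.19). Jun, Jund, Myc, Fosl2, Junb, Nr4a1 and Ier2 were lower with miR-29a under every alternative that measured them. Egr1 turned to 0.10 without the CCl4 1-week pair and 0.74 without the CCl4 2-week pair, and ranged from −0.50 to 0.56 with 1 array left out. Fosb turned to −0.027 without the TAA 1-week pair and ranged from −0.055 to 0.19 with 1 array left out.

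For TAA against CCl4 the count of features past the threshold, 0 as reported, was 6 with normexp and with detection on all 8 arrays, 11 with quantile normalization, 5489 with median scaling, 4342 without the CCl4 2-week pair, 5229 without the TAA 2-week pair and 5012 with the agent by week term. The median of the 9 genes became −0.23 with median scaling. Fosb became −0.31 with quantile normalization, −0.37 with median scaling and −0.21 without either 1-week pair, with −0.13 to 0.11 over single arrays left out. Fosl2 became −0.23 with median scaling and −0.092 without either 1-week pair, with −0.049 to 0.45 over single arrays, and Jund became −0.14 with median scaling. Calls appeared for Egr1 with median scaling (−2.38, adjusted p = 0.0429), Nr4a1 without the TAA 2-week pair (1.95, adjusted p = 0.0272), Ier2 without either 2-week pair (−1.53) and with the agent by week term (−0.82), and Myc with that term (0.71). Over the alternatives the smallest adjusted p was 0.0237 for Ier2 and 0.0309 for Myc.

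For 2 weeks against 1 week 505 features passed without the TAA 1-week pair. Junb turned to 0.30 and Nr4a1 to −0.25 without either CCl4 pair, and Ier2 to −0.39 without either TAA pair. Over single arrays left out, Junb ranged from −0.92 to 0.19 and Nr4a1 from −0.36 to 1.01. The agent by week count, 1819 as reported, was 3430 with normexp, 3439 with median scaling, 0 with no filter on dim probes and 0 to 2381 with 1 array left out. It was 0 without any one CCl4 array and without either TAA 2-week array. The cause of these shifts was not tested. Giving values without the TAA 1-week NC array beside many of the results was chosen after seeing the data. Signal over background limits Fos, Fosb and Junb, the genes of the set not well above background on every array. It also limits some of the listed genes named above. Per3 and Cd3g were well above background on 5 of the 8 arrays, and Ciart, Ier5, Spry4 and Mapk8 on 6. Batf, Atf3, Ccl2, Chil3 and Arntl were so on 7.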
